A study of Danio rerio with 32 samples.

Results

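The mRNAs of the cytosolic ribosomal proteins were followed across 32 libraries of sorted V2a interneurons, excitatory spinal neurons that drive locomotion, from zebrafish with and without a spinal cord injury. Members were all genes with an Ensembl ID whose symbol began with RPL or RPS and a number, together with RPSA, RPLP0, RPLP1 and the rplp2 genes. The ribosomal S6 kinases, rps19bp1 and rps27l were left out. Of 42370 genes in the deposited table, 83 met this rule, 43 of the large subunit, 36 of the small subunit and 4 of the stalk. The table of names gave no plain RPSA, and RPSA2 (ENSDARG00000019181) was counted in its place.

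A cytosolic ribosome is built from ribosomal RNA and mostly a single copy of each ribosomal protein, divided between a small subunit that reads the mRNA and a large subunit that joins amino acids. The mRNAs of these proteins share a tract of pyrimidines at their start, through which mTOR signalling and LARP1 control their translation together. They are among the most abundant mRNAs of growing cells, and in neurons some of them are also carried into axons.

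All fish carried a GFP reporter transgene that marks V2a cells in green, and spinal segments 1 to 7 were taken, which lie rostral to the lesion in injured fish. Rhodamine dextran, applied so that axons carry it back to the cell body, divided the green cells. Traced cells after injury had by the labels regrown an axon, and came from 3 weeks (D3W, 5 libraries) or 8 weeks (D8W, 6 libraries), with traced cells of uninjured fish (Dcon, 5 libraries) for comparison. Untraced cells had by the labels not regrown an axon, and came from 3 weeks (G3W, 5 libraries) or 8 weeks (G8W, 5 libraries), with untraced cells of uninjured fish (Gcon, 6 libraries). Each condition used the tissue of 20 fish, and the age of the fish is not given in the sources used here. Nothing in the labels says that libraries came from separate pools of fish, and the p-values therefore reflect the spread among these libraries alone, part of which may be technical. In bulk samples, fewer cells of a type and less RNA per cell cannot be told apart.

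Values are FPKM, fragments per kilobase of gene and per 1 M fragments, as the authors deposited them. Fold changes are log2 differences of FPKM scaled by a median-ratio factor per library, with 1 added. Library totals inferred from the steps of the FPKM values ran from 9.42 to 27.7 M fragments, so 3 fragments in a gene of 1 kb equal 0.108 to 0.319 FPKM, a floor that covers counting error only. At 1 FPKM or more, D3W replicate 3 had 7755 genes and D3W replicate 5 had 8710, against 10929 to 18414 in the other 30 libraries. Transcripts of the mitochondrial genome made up 11.2 to 23.7% of FPKM in D3W, 12 to 25.7% in D8W and 7.19 to 13.6% in Dcon, and 5.86 to 11.6% in G3W, 8.28 to 18.1% in G8W and 4.76 to 11.2% in Gcon. Neuronal genes, led by SNAP25, were detected in every group. Myelin genes such as mbpa were also detected in every group.

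Ribosomal protein mRNAs were plentiful in all 6 groups. Their summed FPKM was spread over many genes, with 5 members holding a median of 19.9% of it and 20 members 51.6%. Of the 83 members, 73 averaged over 100 FPKM and 78 reached 1 FPKM in all 32 libraries. The highest 3 were rps20, a protein of the small subunit head, at a mean of 2125 FPKM over 32 libraries, rpl32 of the large subunit at 1477 FPKM, and RPS2, which lines the mRNA entry of the small subunit, at 1439.9 FPKM. RPS4Y2 (the table's name for the small subunit protein S4), rplp2 of the stalk, RPL19 and RPLP1 followed at 1049 to 1282 FPKM. Among the lowest were RPL26 (ENSDARG00000102317) at 0.225 FPKM and RPL9 (ENSDARG00000037350) at 1.09 FPKM. RPL26 and 1 further member did not reach 1 FPKM in 5 libraries and were not tested, which left 81 members.

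The members varied together from library to library. The log2 values of each member over 32 libraries, centred on the gene mean, were correlated with the median of the other members. The Pearson r was above 0.8 for 73 of 81 members, with a median of 0.93. This is a description over libraries that also share depth and scaling. Only 3 members stayed under 0.5, among them RPL9 (ENSDARG00000037350) at -0.12, and RPL7L1, whose yeast relative Rlp7 works in ribosome assembly, at 0.47. RPL3, which lies at the peptidyl transferase centre, had the next lowest value at 0.65. Genes with near-identical copies, such as the pairs named RPL5 and RPS26, may exchange reads in ways these files do not resolve.

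**Figure D1:**
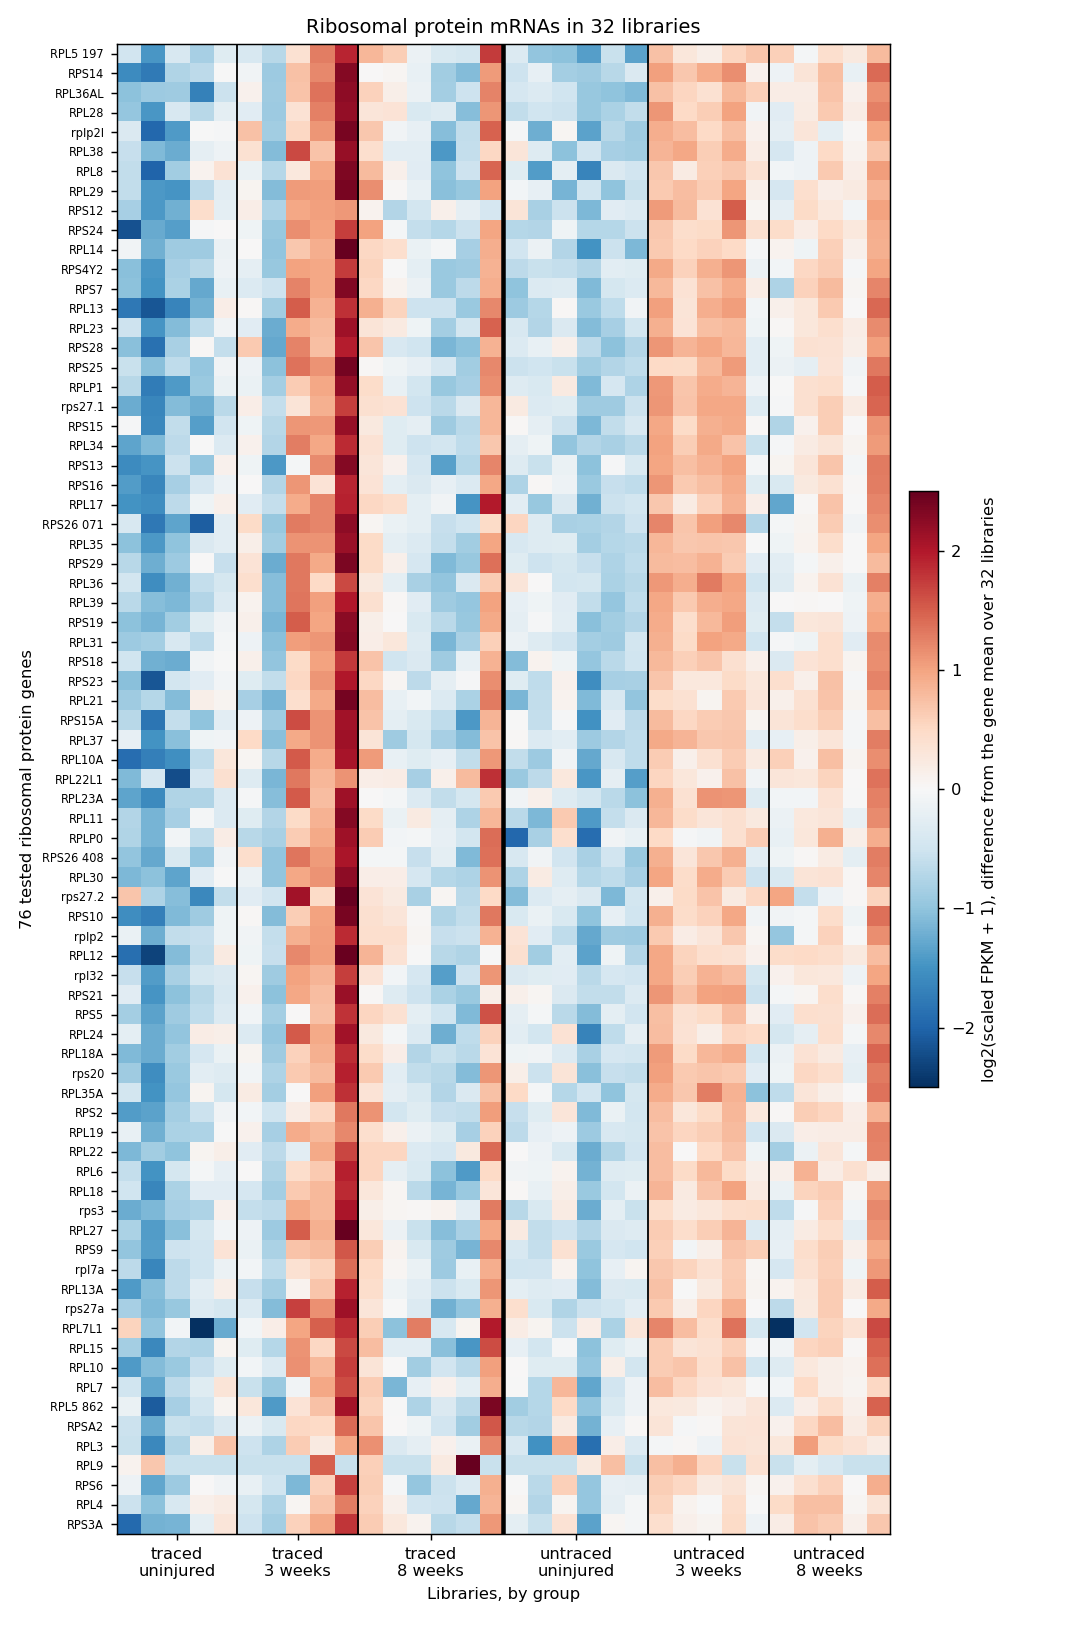
Each line is 1 of 76 tested ribosomal protein genes and each column 1 of 32 libraries, grouped and divided by black lines, with traced cells left of the thick line. Colour gives log2(scaled FPKM + 1) minus the gene's mean over 32 libraries, genes run from the highest to the lowest fold change in G3W against Gcon, and a number after a shared symbol is the end of its Ensembl ID. Most genes follow the same columns of red and blue.

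By group mean, the 83 genes together took their largest share of FPKM at 3 weeks in both kinds of cell. In traced cells the share was 3.18, 1.94, 2.66, 3.23 and 4.16% in the 5 uninjured libraries (Dcon), 4.66, 2.79, 5.04, 5.70 and 10.2% in the 5 libraries at 3 weeks (D3W), and 1.82% at the lowest, a median of 3.27% and 5.88% at the highest in the 6 libraries at 8 weeks (D8W). In untraced cells it was 3.30% at the lowest, a median of 4.75% and 5.20% at the highest in Gcon, 9.73, 8.00, 9.44, 9.38 and 6.01% in G3W, and 4.93, 7.05, 8.03, 4.28 and 8.38% in G8W. All 5 G3W libraries thus lay above all 6 Gcon libraries. D3W replicate 2 lay within the Dcon range, D3W replicate 5 was the highest of the 32 libraries, and D8W spanned the Dcon range on both sides.

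Averaged by group, the share was 5.67 ± 2.74% in D3W and 3.74 ± 1.72% in D8W against 3.04 ± 0.816% in Dcon, and 8.51 ± 1.55% in G3W and 6.53 ± 1.84% in G8W against 4.59 ± 0.664% in Gcon (SD, n = 5 or 6). With the mitochondrial genome left out of the total it was 7.03 ± 3.81% in D3W against 3.40 ± 0.959% in Dcon, and 9.27 ± 1.80% in G3W against 4.93 ± 0.641% in Gcon. The order of the group means was G3W, G8W, D3W, Gcon, D8W and Dcon, and the ranges of neighbours in this order overlapped. It depended on the total used: with the 100 highest other genes of each library left out, D3W at 12.7% stood above G8W at 11.9%, and D8W at 9.07% above Gcon at 7.48%.

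**Figure D2:**
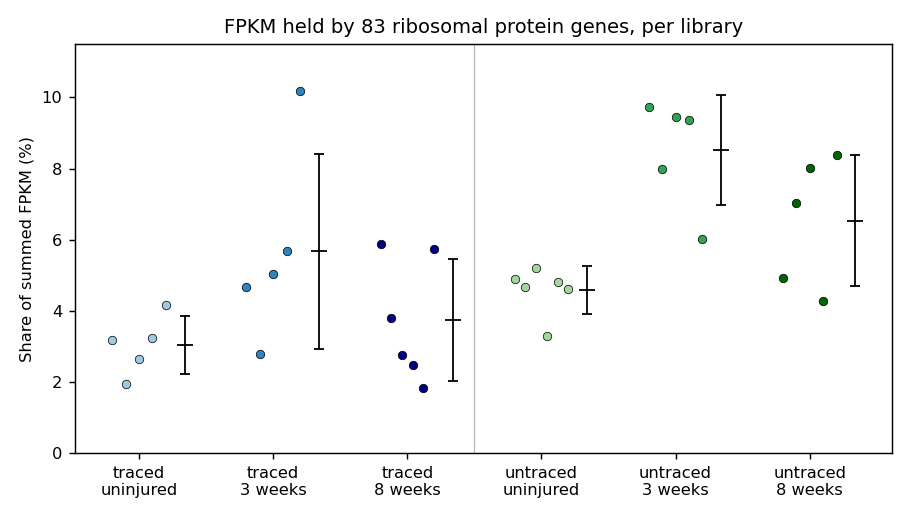
The vertical axis is the percentage of summed FPKM in 83 ribosomal protein genes, each point is a library, and the bars beside each group give the mean and SD. Untraced libraries at 3 weeks lie between 6.01 and 9.73%, above all untraced uninjured libraries at 3.30 to 5.20%, while the traced libraries at 3 weeks spread from 2.79 to 10.2%.

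In traced cells at 3 weeks against uninjured traced cells, nearly the whole set was higher. Of 81 tested members, 80 had a positive log2 fold change, with a median of 1.32 and quartiles of 1.11 and 1.53, against a median of 0.01 over all 22552 genes tested. In the limma fit, 11 members were called higher at a Benjamini-Hochberg adjusted p under 0.05 and 0 lower, where 0.492% of all genes were called higher and 0.297% lower. At an unadjusted p under 0.05, 72 members were higher, against 6.62% of all genes, and 1 was lower, against 5.86%. Values in D3W and Dcon did not overlap, on the scaled scale, for 1 member, where 0.78% of all genes were higher without overlap. The small subunit had a median of 1.41 over 35 members, the large subunit 1.25 over 42 and the stalk 1.34 over 4.

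The member without overlap was rps27.1, a zinc finger protein on the small subunit surface. It had 1023, 568, 692, 1154 and 1832 FPKM in D3W, against 395, 292, 413, 345 and 520.0 FPKM in Dcon. Every D3W library was higher than every Dcon library, and the log2 fold change was 1.67 (SE 0.36, limma with Benjamini-Hochberg adjusted p = 0.0194). RPS26 (ENSDARG00000037071), which contacts the mRNA at the exit channel, had 425, 149, 457, 485 and 872 FPKM in D3W, against 236, 86.2, 116, 63.5 and 231 FPKM in Dcon. Only D3W replicate 2 lay within the Dcon range, and the log2 fold change of 2.03 (SE 0.45, adjusted p = 0.0243 in limma) was the largest among the 11 members called. Its paralogue RPS26 (ENSDARG00000030408) averaged 168 ± 82.9 FPKM in D3W and 67.7 ± 22.3 FPKM in Dcon (SD, n = 5 each), a log2 difference of 1.52 that was not called (limma adjusted p = 0.0965).

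RPL13 of the large subunit had 245, 123, 420.1, 301 and 516 FPKM in D3W, against 70.9, 53.1, 72.2, 93.1 and 244 FPKM in Dcon. Dcon replicate 5 reached the D3W range and D3W replicate 2 was low, and the log2 fold change was 1.99 (SE 0.47, limma adjusted p = 0.0322). RPL10A, a protein of the large subunit's L1 stalk, had 234, 132, 403, 296 and 569.9 FPKM in D3W, against 61.7, 68.4, 74.4, 128 and 251 FPKM in Dcon. The same Dcon library overlapped there, and the log2 fold change was 1.87 (SE 0.44, limma adjusted p = 0.0331). RPL10, added last to the large subunit and in yeast needed for its joining, had 711, 550.5, 998, 892 and 1494 FPKM in D3W, against 285, 346, 373, 441 and 551 FPKM in Dcon. D3W replicate 2 was level with the highest Dcon library, and the log2 fold change was 1.52 (SE 0.38, limma adjusted p = 0.0415). The other members called included RPL12 at the base of the stalk (1.94), RPL36AL (1.72), RPS7 (1.69), RPL23A near the exit of the peptide tunnel (1.62) and RPL35 (1.56), with limma adjusted p of 0.0337 to 0.0458.

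The number of calls depended on single libraries. The count of 11 was 57 without D3W replicate 2, where 1.33% of all genes were called higher, and 24 without D3W replicate 1, where 0.948% were. It was 0 without D3W replicate 4, D3W replicate 5 or Dcon replicate 2, 1 without D3W replicate 3, 2 without Dcon replicate 1 or Dcon replicate 3, and 3 without Dcon replicate 4. In these 7 fits 0.192 to 0.362% of all genes were called higher, and in the fit without Dcon replicate 5, with 13 members called, 0.452%. Without D3W replicates 3 and 5, the libraries with fewest genes, it was 0, against 0.0759% of all genes, and the median over members was 0.75. The median stayed positive throughout, at 0.99 to 1.69 with single libraries left out. The scaling factors were 0.754 to 1.25 in D3W and 1.11 to 1.29 in Dcon, and on FPKM as deposited the median was 0.98 with a median of all genes of -0.07. Of the 11 calls, that of rps27.1 held most often, in 7 of 10 fits with a library left out and 6 of 8 other settings.

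A few members differed less. RPL4, which lines the peptide exit tunnel, had 307, 231, 262, 461 and 609 FPKM in D3W, against 296, 204, 301, 405 and 437 FPKM in Dcon (log2 fold change 0.48, SE 0.37). The 2 highest D3W libraries lay above all Dcon libraries and the other 3 within their range. RPL3 (0.52), RPS6, the substrate of the S6 kinases (0.58), and RPL7 (0.69) had the next lowest log2 fold changes apart from the sparse RPL9 (ENSDARG00000037350; 0.04), and none was called. The highest log2 fold change of all was that of RPL7L1 at 2.24 (SE 0.86, limma adjusted p = 0.226). It had 37.4, 41.6, 47.5, 76.6 and 86.7 FPKM in D3W, against 59.3, 18.9, 35.2, 0 and 14.2 FPKM in Dcon, with 1 Dcon library, replicate 4, listed at 0.

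**Figure D3:**
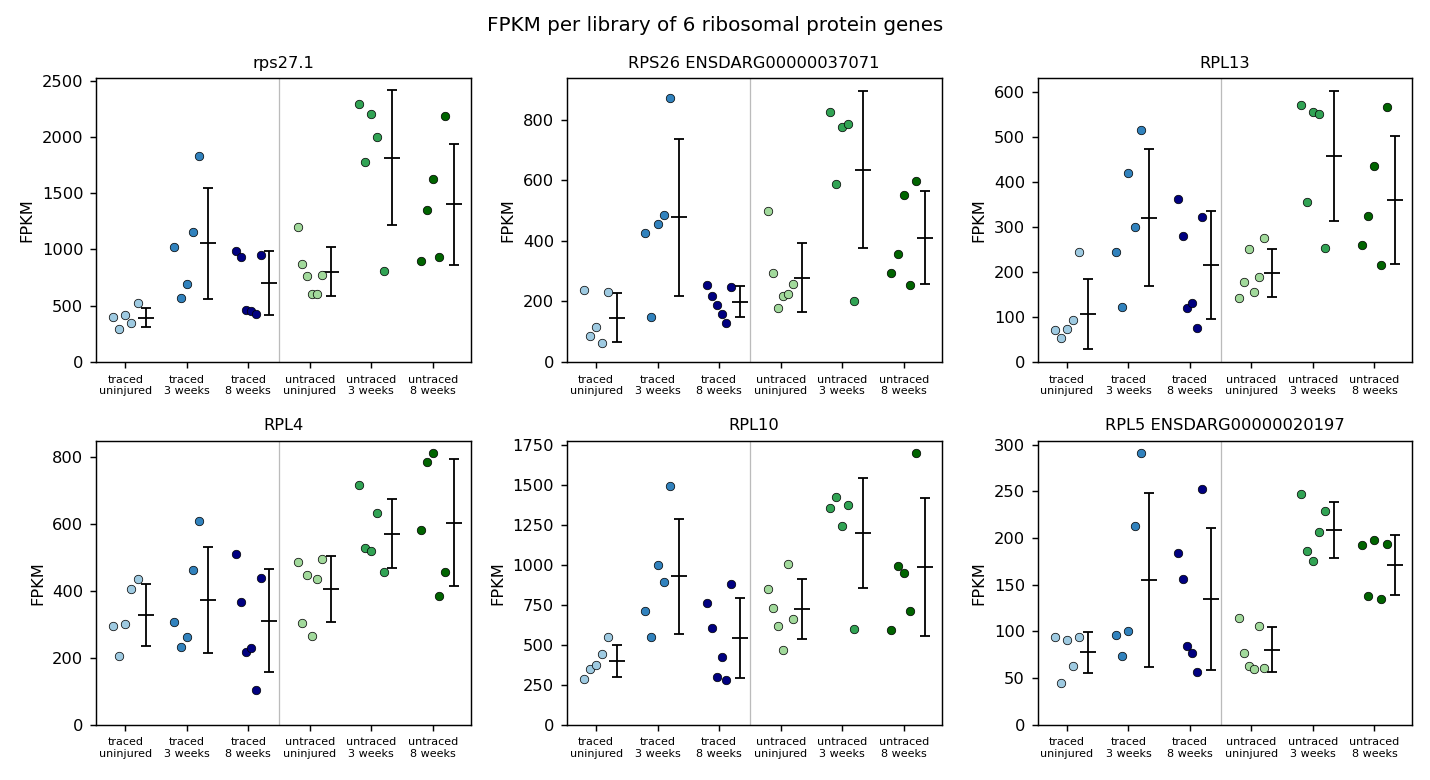
FPKM per library of 6 ribosomal protein genes on linear axes from 0, with the mean and SD beside each group. rps27.1, RPS26 and RPL13 are low in traced uninjured libraries and higher at 3 weeks, RPL4 overlaps between traced groups, and RPL10 and RPL5 are higher in most untraced libraries at 3 weeks than in untraced uninjured ones.

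In untraced cells at 3 weeks against uninjured untraced cells, the set was higher as well, with quartiles closer together. Here 80 of 81 members had a positive log2 fold change, with a median of 1.04 and quartiles of 0.86 and 1.14, against 0.14 over all genes tested. For 29 members every G3W library lay above every Gcon library on the scaled values, against 1.0% of all genes. The limma fit called 0 members at an adjusted p under 0.05, where 0.0798% of all genes were called higher and 0.0133% lower, and the smallest adjusted p of a member was 0.29. At an unadjusted p under 0.05, 63 members were higher, against 5.24% of all genes, and 0 lower, against 1.77%. With array weights per library, limma called 12 members higher, against 0.386% of all genes. When only these 2 groups entered the fit it called 1, against 0.0842%. The median ran from 0.94 to 1.2 with single libraries left out and from 0.93 to 1.16 over the other settings.

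RPL5 (ENSDARG00000020197), which carries the smallest RNA of the large subunit, had 247, 186, 175, 206 and 228 FPKM in G3W, against a lowest value of 59.9, a median of 70.0 and a highest of 114 FPKM in Gcon. These did not overlap, at a log2 difference of 1.42 (SE 0.41, limma adjusted p = 0.29). RPL5 (ENSDARG00000015862) had 166, 167, 157, 148 and 161 FPKM in G3W, against a lowest value of 71.9, a median of 98.8 and a highest of 171 FPKM in Gcon, where the groups overlapped and the log2 difference was 0.64 (SE 0.50). RPS14, a protein of the small subunit platform, had 1459, 1164, 1455, 1535 and 737 FPKM in G3W, against a lowest value of 348, a median of 476 and a highest of 644 FPKM in Gcon. No library overlapped there, at a log2 difference of 1.37 (SE 0.42, limma adjusted p = 0.342).

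Among members fixed by their role, the log2 differences in G3W against Gcon were 1.25 for RPL38, which in mice affects translation of Hox mRNAs, 1.1 for RPS19, mutated in human Diamond-Blackfan anaemia, and 1.03 for RPL11, which binds Mdm2 in mammals. They were 1.1 for RPL39, which lies at the exit of the peptide tunnel, 1.05 for RPL37, also of the large subunit, 1.17 for RPS28 and 1.1 for RPS29 of the small subunit head, and 0.78 for rps27a, made as a fusion with ubiquitin. The stalk proteins RPLP0, RPLP1 and rplp2, which recruit the GTPases of elongation, had 1.03, 1.15 and 0.99. RPL22 and its paralogue RPL22L1 had 0.86 and 1.04, and rps27.2, the paralogue of rps27.1, had 1.01. In D3W against Dcon, the same members had 1.42 for RPL38, 1.44 for RPS19, 1.15 for RPL11, 1.47 for RPL39, 1.32 for RPL37, 1.52 for RPS28, 1.42 for RPS29 and 1.44 for rps27a. RPLP0, RPLP1 and rplp2 had 0.92, 1.55 and 1.16 there, RPL22 0.84, RPL22L1 1.11 and rps27.2 1.56. RPS2, rps3 and RPS4Y2 of the small subunit had 1.13, 1.27 and 1.35 in D3W against Dcon, and 0.91, 0.85 and 1.19 in G3W against Gcon. No member in these sentences was called in either comparison.

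Among the members that differed least in untraced cells were RPS3A at a log2 difference of 0.49, RPL4 at 0.53, RPS6 at 0.59, RPL9 (ENSDARG00000037350) at 0.60, RPL3 at 0.62 and RPSA2 at 0.62. RPL4 had 718, 529, 518, 633 and 457 FPKM in G3W, against a lowest value of 264, a median of 442 and a highest of 496 FPKM in Gcon, and 1 G3W library lay within the Gcon range. RPL4, RPL3 and RPS6 were thus near the low end in traced and in untraced cells, in comparisons that share no library.

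**Figure D4:**
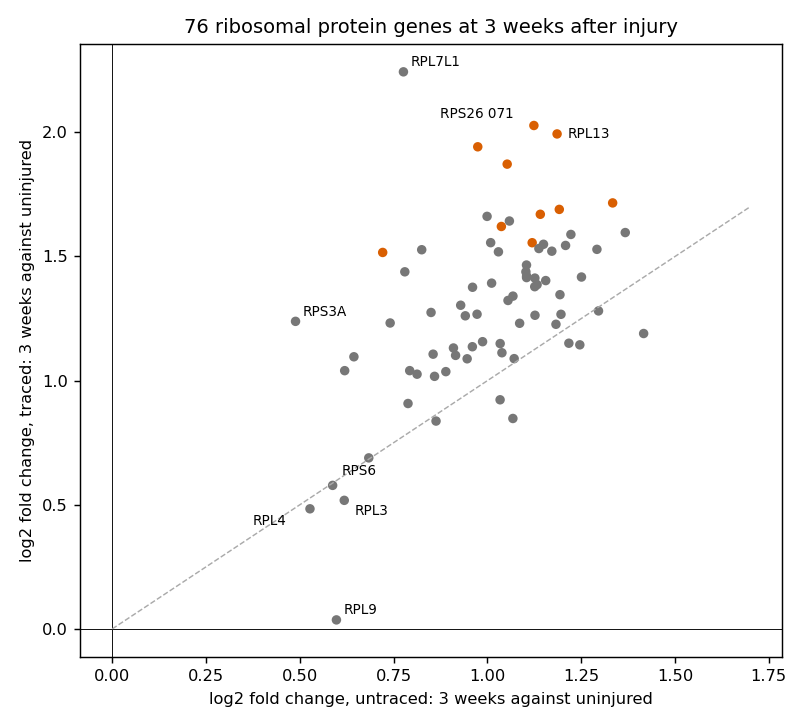
Each point is 1 of 76 ribosomal protein genes, with its log2 fold change at 3 weeks in untraced cells (G3W against Gcon) on the horizontal axis and in traced cells (D3W against Dcon) on the vertical axis. Orange marks 10 genes called in traced cells, the dashed line marks equal change, and a number after a shared symbol is the end of its Ensembl ID. RPL4, RPL3 and RPS6 sit low on both axes, and all 76 genes shown are positive on both.

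At 8 weeks the median differences of members from uninjured cells were smaller than at 3 weeks in both kinds of cell. In traced cells this depended on D3W replicates 3 and 5. Without them the median at 3 weeks was 0.75, and that of D8W against D3W was -0.05. In D8W against Dcon, 80 of 81 members had a positive log2 fold change with a median of 0.69, against 0.19 over all genes. On FPKM as deposited the median was 0.27 with 71 of 81 positive, against 0.02 over all genes. The limma fit called 0 members, where 0.0399% of all genes were called higher and 0.0222% lower. Of the members, 28 were higher at an unadjusted p under 0.05, against 7.48% of all genes, and 1 was lower, against 3.27%. With quantile normalization limma called 1 member higher, against 0.0576% of all genes. The largest log2 differences were those of RPL7L1 (1.78), RPL13 (1.43) and RPL10A (1.24), and RPL24 (0.19) and RPL4 (0.21) were the lowest above 0. Only rps27.1 did not overlap, against 0.563% of all genes, with a lowest value of 425, a median of 698 and a highest of 987 FPKM in D8W against 395, 292, 413, 345 and 520.0 FPKM in Dcon and a log2 difference of 1.18 (SE 0.35, limma adjusted p = 0.183). On FPKM as deposited, D8W replicates 3, 4 and 5 at 461, 449 and 425 FPKM lay below the highest Dcon value of 520.0 FPKM. The separation holds on the scaled values alone, where D8W replicate 4 (factor 0.981) and Dcon replicate 5 (factor 1.14) were nearly level. This 1 member was 1.23% of those tested, a count too small to set apart from the 0.563% of all genes.

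In G8W against Gcon, 78 of 81 members were positive with a median log2 fold change of 0.79, against 0.08 over all genes. For 19 members all G8W libraries lay above all Gcon libraries on the scaled values, against 0.652% of all genes. The limma fit called 0 members, where 0.0266% of all genes were called higher and 0.00443% lower. Without adjustment, 37 were higher at p under 0.05, against 4.31% of all genes, and 0 lower, against 1.98%. RPL5 (ENSDARG00000020197) had the largest value, with 193, 138, 197, 134 and 193 FPKM in G8W, against a lowest value of 59.9, a median of 70.0 and a highest of 114 FPKM in Gcon. No library overlapped, and the log2 difference was 1.34 (SE 0.41, limma adjusted p = 0.464). The 3 members below 0 included RPL7L1 (-0.48) and RPL9 (ENSDARG00000037350; -0.26). RPL3 and RPL4, low at 3 weeks, had log2 differences of 0.98 and 0.78 here, and RPS6 had 0.65. The comparisons at 3 and at 8 weeks share their uninjured libraries, and 78 members were positive in all 4.

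Between the times after injury, no member was called. In D8W against D3W, 77 of 81 members were negative with a median log2 fold change of -0.62, against 0.15 over all genes. The limma fit called 0 members, where 0.0133% of all genes were called lower and 0.0266% higher. There, 21 were lower at an unadjusted p under 0.05, against 2.98% of all genes, and 0 higher, against 6.2%. Without D3W replicates 3 and 5 the median was -0.05 and 50 of 81 were negative. Leaving out D3W replicate 5 alone gave -0.30. The lowest members were RPL37 (-1.09), RPL38 (-1.04) and RPS26 (ENSDARG00000037071; -1.02). In G8W against G3W, 68 of 81 members were negative with a median of -0.22, against -0.06 over all genes. There limma called 0 members, where 0.00443% of all genes were called lower and 0.0% higher. At an unadjusted p under 0.05, 0 members were lower, against 2.0% of all genes, and 0 higher, against 1.17%.

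Between traced and untraced cells of the same state, 0 members were called. In D3W against G3W the median log2 difference of members was 0.05 with 49 of 81 positive, against -0.26 over all genes, but it was -0.58 with 0 positive on FPKM as deposited, where the median of all genes was also -0.58, and -0.48 with quantile normalization. It was -0.50 without D3W replicates 3 and 5. The limma fit called 0 members, where 0.195% of all genes were called higher and 1.09% lower, and 0 passed an unadjusted p under 0.05, where 3.01% of all genes were higher and 10.4% lower. Among the furthest above the member median was rps27.2 (0.47), and the furthest below were RPL9 (ENSDARG00000037350; -0.54), RPS13 (-0.34) and RPS12 (-0.26).

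In D8W against G8W, 74 of 81 members were negative with a median log2 difference of -0.38, against -0.05 over all genes. The limma fit called 0, where 0.0621% of all genes were called lower and 0.00443% higher. One member, RPL18, was lower at an unadjusted p under 0.05, against 4.29% of all genes, and 0 were higher, against 2.7%. In uninjured cells, Dcon against Gcon, 70 were negative with a median of -0.24, against -0.15 over all genes. There limma called 0, where 0.204% of all genes were called lower and 0.0842% higher. At an unadjusted p under 0.05, rps27.1 was lower, against 7.01% of all genes, and 1 member was higher, against 3.62%. The test of the difference itself, the change after injury in traced cells minus that in untraced cells, called 0 members at 3 weeks in limma, where 0.0% of all genes were called higher and 0.00443% lower. It called 0 at 8 weeks, where 0.0% were called in either direction. With an unadjusted p under 0.05, 0 members passed at 3 weeks, where 1.99% of all genes were higher and 3.63% lower, and 0 at 8 weeks, where 2.81% were higher and 1.75% lower. The median of that difference over members was 0.27 at 3 weeks, and it was -0.06 on FPKM as deposited and -0.27 without D3W replicates 3 and 5. At 8 weeks it was -0.12, and 0.09 with quantile normalization.

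**Figure D5:**
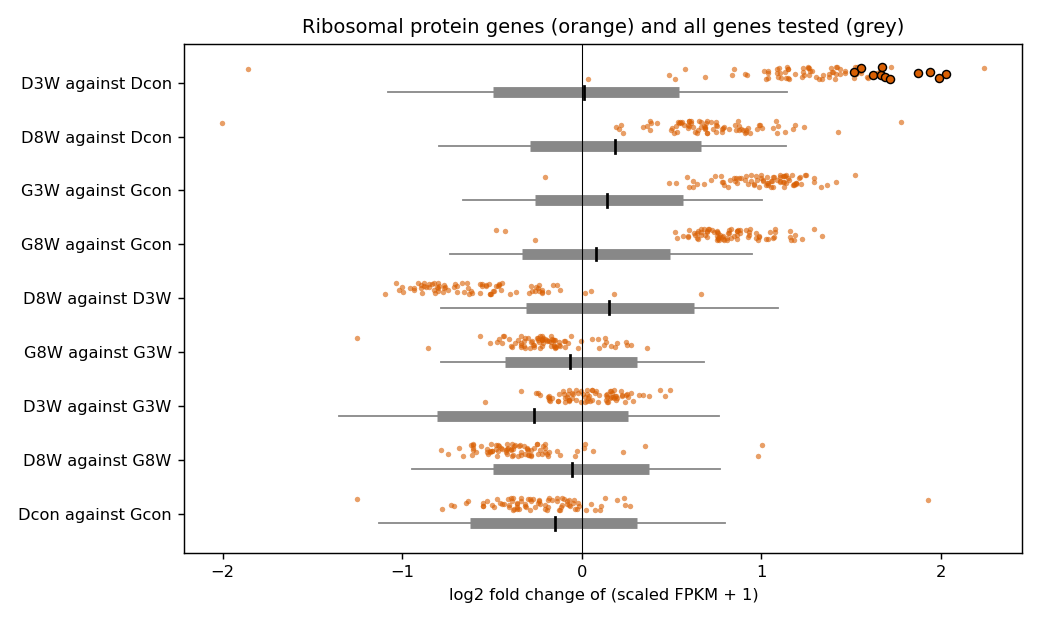
Orange points are the log2 fold changes of 81 ribosomal protein genes in 9 comparisons, with the 11 called genes outlined in black. Grey bars and lines give the quartiles and outer deciles of all 22552 genes tested, with a black tick at their median. Most orange points lie right of the grey medians in the 4 comparisons of injured with uninjured cells, at member medians of 0.69 to 1.32, and around or below 0 in the others.

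Other lists of the translation machinery had medians nearer to 0. The 75 mitochondrial ribosomal proteins, which serve the separate ribosome of the mitochondrion, had a median log2 fold change of -0.18 in D3W against Dcon with 31 positive, and 0.42 in G3W against Gcon with 61 positive, and 0 were called in either. Ribosome biogenesis factors, which process ribosomal RNA, had medians of 0.24 and 0.24 over 61 genes, with 35 and 38 positive and 0 called. The 12 genes of RNA polymerase I and its factors had medians of -0.13 and 0.16, the 65 initiation genes -0.03 and 0.20, and the 13 elongation factors 0.09 and 0.34, for D3W against Dcon first and G3W against Gcon second. The 16 genes of ribosome-associated proteins and partners of these mRNAs, which include rps27l, had medians of 0.57 and 0.51, and the 24 genes of mTOR and S6 kinase signalling 0.06 and 0.18. The protein genes of the mitochondrial genome had a median of 0.89 in D3W against Dcon with 13 of 13 positive, and 0.02 in G3W against Gcon with 8 positive, and 0 were called in either. In G3W against Gcon the limma fit called 0 genes of these lists. For D8W against Dcon first and G8W against Gcon second, the members had medians of 0.69 and 0.79. Mitochondrial ribosomal proteins had -0.27 and 0.51 there, biogenesis factors 0.42 and 0.29, and RNA polymerase I genes 0.63 and 0.03. Initiation genes had 0.10 and 0.28, elongation factors 0.03 and 0.52, the partners 0.46 and 0.30, and mTOR and S6 kinase genes -0.26 and -0.0001.

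Single genes of these lists passed in limma. EIF4EBP3, an inhibitor of cap-dependent initiation, averaged 140.2 FPKM in D3W and 15.2 FPKM in Dcon, a log2 fold change of 3.39 (SE 0.85, Benjamini-Hochberg adjusted p = 0.0458). The gene rps27l, a paralogue of RPS27 that is a p53 target in mammals, had 191, 97.0, 161, 258 and 221 FPKM in D3W, against 0, 21.8, 33.5, 21.5 and 35.2 FPKM in Dcon. All D3W libraries were higher, with a log2 fold change of 3.88 (SE 0.70, limma adjusted p = 0.0043). At 8 weeks its log2 difference from Dcon was 3.01 (SE 0.67, limma adjusted p = 0.0558), while in G3W against Gcon it was 0.89 (SE 0.67, limma adjusted p = 0.88). The test of the difference between the traced and untraced changes at 3 weeks gave 2.99 (SE 0.96, limma adjusted p = 0.801). Untraced cells averaged 175 FPKM of rps27l in G3W, 105 FPKM in G8W and 134 FPKM in Gcon. Traced cells averaged 185 FPKM in D3W, 115 FPKM in D8W and 22.4 FPKM in Dcon. Single Gcon libraries ran from 23.0 to 355 FPKM, and Dcon against Gcon gave -2.31 (SE 0.67, limma adjusted p = 0.133). For rps27l, D3W against G3W gave 0.68 (SE 0.70, limma adjusted p = 0.716). The elongation factor eef1a2, the form found in neurons and muscle in mammals, averaged 52.6 FPKM in D3W and 4.49 FPKM in G3W (log2 difference 3.85, SE 0.82, limma adjusted p = 0.0113). In uninjured cells it averaged 35.8 FPKM in Dcon and 5.80 FPKM in Gcon (3.38, SE 0.79, limma adjusted p = 0.0479). All 13 protein genes of the mitochondrial genome were called higher in D3W against G3W, with a median log2 difference of 1.93.

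Markers of other cells also differed in the traced comparison. In D3W against Dcon, 14 of 15 tested astroglial markers were positive (median 1.21), with summed FPKM of 1269 to 3105 in D3W and 554 to 3626 in Dcon, and S100B was called (5.78, limma adjusted p = 0.00832). Of 12 oligodendrocyte and Schwann cell markers 10 were positive (1.29), with sums of 2112 to 19962 in D3W and 3587 to 8899 in Dcon. Neuron and V2a markers were positive for 2 of 13 (-0.62), with sums of 1859.9 to 5372 in D3W and 3935 to 7716 in Dcon. Microglial markers had 6 of 17 positive (-0.64), but their summed FPKM had a higher median in D3W. These sums were 667 to 12565 in D3W (median 3417) and 672 to 3571 in Dcon (median 1054), with apoeb and cd74a highest. Endothelial and mural markers had 8 of 9 positive (0.65), fibroblast ones 8 of 11 (1.03) and red blood cell ones 0 of 4 (-0.62). Inhibitory neuron markers had 5 of 10 positive (-0.07) and motor neuron ones 5 of 8 (0.59). At 0 in all 5 D3W libraries were VSX1, 1 SLC1A2 gene, 1 MPEG1 gene, P2RY12, TIE1, 1 TAGLN gene, LUM, 5 of 7 red blood cell genes, ISL1 and ISL2. At 0 in all 5 Dcon libraries were VSX1, olig1, GPR17, AQP4, 1 SLC1A2 gene, 2 MPEG1 genes, c1qa, CLDN5, flt1, EGFL7, 3 of 7 red blood cell genes and SLC18A3.

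In G3W against Gcon, where no marker was called in limma, 10 of 15 astroglial markers were positive (0.32), with sums of 1749.9 to 2375 in G3W and 1105 to 3809.7 in Gcon. Oligodendrocyte and Schwann cell markers had 6 of 12 positive (-0.13), with sums of 3733 to 10782 in G3W and 2342 to 22713 in Gcon. Neuron and V2a markers had 4 of 13 positive (-0.23), with sums of 3524 to 4651 in G3W and 4175 to 6227 in Gcon. The remaining lists had 10 of 17 positive for microglia (0.06), 3 of 9 for endothelium (-0.04), 8 of 11 for fibroblasts (0.15), 3 of 4 for red blood cells (0.34), 3 of 10 for inhibitory neurons (-0.13) and 2 of 8 for motor neurons (-0.58). Genes at 1 FPKM or more numbered 17233 ± 637 in G3W and 14670.2 ± 2466 in Gcon, and 12228 ± 3773 in D3W and 12624 ± 1481 in Dcon. The part of these markers, of the genes detected and of the mitochondrial share in the ribosomal protein differences was not tested.

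Marker lists also differed at 8 weeks. In D8W against Dcon, 14 of 15 astroglial markers were positive (median 1.47), with sums of 533 to 6391 in D8W and 554 to 3626 in Dcon, and S100B was again the marker called (5.13, limma adjusted p = 0.0455). Oligodendrocyte and Schwann cell markers had 7 of 12 positive (0.66), with sums of 2237 to 9206 in D8W and 3587 to 8899 in Dcon. Endothelial and mural markers were positive for 9 of 9 (1.04), with sums of 13.7 to 357 in D8W and 8.55 to 66.9 in Dcon, and fibroblast markers for 9 of 11 (1.33), with sums of 45.1 to 884 in D8W and 31.6 to 234 in Dcon. Neuron and V2a markers had 5 of 13 positive (-0.51), with sums of 2081 to 4320.0 in D8W and 3935 to 7716 in Dcon. The other lists had 10 of 17 positive for microglia (0.26), 1 of 4 for red blood cells (-0.57), 4 of 10 for inhibitory neurons (-0.34) and 3 of 8 for motor neurons (-0.15).

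In G8W against Gcon, 16 of 17 microglial markers were positive (1.28), with sums of 429 to 5291 in G8W and 29.6 to 2334 in Gcon, and limma called no marker. Neuron and V2a markers had 5 of 13 positive (-0.21), with sums of 3126 to 4832 in G8W and 4175 to 6227 in Gcon, and oligodendrocyte and Schwann cell markers 8 of 12 (0.17), with sums of 5477 to 16006 in G8W and 2342 to 22713 in Gcon. The remaining lists were positive for 8 of 15 astroglial (0.29), 8 of 9 endothelial (0.36), 8 of 11 fibroblast (0.86), 3 of 4 red blood cell (0.69), 4 of 10 inhibitory neuron (-0.19) and 2 of 8 motor neuron markers (-0.36). All 13 protein genes of the mitochondrial genome were positive in both 8-week comparisons, with medians of 1.1 in D8W against Dcon and 0.87 in G8W against Gcon, and none was called. The part of the markers and of the mitochondrial genes in the 8-week ribosomal protein differences was not tested.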

How the data were processed

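RNA of sorted cells was sequenced in 32 libraries prepared with a SMART-Seq low-input kit, per the labels' protocols. The authors deposited 1 table of FPKM per gene and library; HTSeq 0.9.1, HISAT2 2.0.5 and, as genome build, danRer11 are given in the submitters' processing notes. Of 31901 Ensembl IDs, 29178 matched a symbol. Library totals were inferred from the steps of the FPKM values and serve only for the floor. The members and gene lists were chosen with earlier results of these data known.

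Each library's FPKM were scaled by 1 median-ratio factor, from 6387 genes that reached 1 FPKM in 28 libraries (0.1 added), then log2-transformed with 1 added, which understates changes of low genes. The 22552 genes reaching 1 FPKM in 5 libraries were tested with limma 3.58.1 in R 4.3.3 (trend and robust empirical Bayes, a mean per group, two-sided, Benjamini-Hochberg over all genes, calls at adjusted p under 0.05). The fit was also run on simulated data, with library deviations reshuffled and randomly drawn genes changed in D3W. That setting held no set of genes changed together and no built-in difference in spread between groups. It therefore does not bear on the member counts. Tables and figures used Python 3.11.15, pandas 2.3.3, numpy 2.4.6 and matplotlib 3.10.9.

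Members named were those called (up to 12 by p), a list fixed by role, the 3 highest and 3 lowest by level, the 3 furthest above and below the member median in D3W against Dcon and D3W against G3W, and those not tested; outside them, called genes of the lists and rps27l. Members lowest or highest in other comparisons were named after their values were seen. RPL41 of the list fixed by role matched no gene. Some genes that these rules name are not reported here, and the plots of single genes leave them out. Alternatives were a pseudocount of 0.1, testing without the filter, unscaled FPKM, quantile normalization, only the groups compared, array weights, a replicate block, other denominators of the share and leaving out libraries.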

Additional observations from a re-analysis of the deposited data

Results flagged for a closer look

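The share of FPKM in ribosomal protein genes, a member score and 12 single members were looked at for a library far from the rest of its group. The score was the median over members of the log2 level minus the gene mean. With 6 groups this gave 84 groups of values in all. Chance alone picks out about 1 in 20 such groups, and 5 were found. Gcon replicate 4 had the lowest share at 3.30%, with the other 5 Gcon libraries at 4.63 to 5.20%. RPL10 was low in G3W replicate 5 at 600.5 FPKM, with the other G3W libraries at 1245 to 1426 FPKM. RPL12 was high in D3W replicate 5 at 641 FPKM, with 121 to 271 FPKM in the other D3W libraries. RPL13 was high in Dcon replicate 5 at 244 FPKM, with 53.1 to 93.1 FPKM in the other Dcon libraries. RPS26 (ENSDARG00000037071) was high in Gcon replicate 1 at 497.5 FPKM, with 179 to 295 FPKM in the other Gcon libraries.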

How the results depend on the processing

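In D3W against Dcon the 11 members called were 1 without the filter on low values, 2 on FPKM as deposited, 5 with quantile normalization, 0 with only the groups compared in the fit, 1 with array weights and 0 without D3W replicates 3 and 5, while 0.0576 to 0.306% of all genes were called higher in these 6 fits. With single libraries left out they ranged from 0 to 57. G3W against Gcon gave 1 call with only the groups compared and 12 with array weights, D8W against Dcon gave 1 with quantile normalization (0.0576% of all genes), and outside D3W against Dcon the count stayed at 0 in the other settings run. The median log2 difference of D3W against G3W was -0.58 on FPKM as deposited, where the scaling factor is left out and the median of all genes is -0.58 in place of -0.26. The medians of the 4 comparisons of injured with uninjured cells stayed positive in every setting run, from 0.27 to 1.69. Leaving the 100 highest other genes of each library out of the total gave shares of 12.7% in D3W, 9.07% in D8W and 5.89% in Dcon, and 13.9% in G3W, 11.9% in G8W and 7.48% in Gcon, since the total is smaller. Except where that is said, the cause was not tested. FPKM as deposited also shifted the median of all genes to 0.02 in D8W against Dcon, -0.03 in G8W against Gcon, -0.20 in G8W against G3W, -0.32 in D8W against G8W and -0.31 in Dcon against Gcon.

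With the replicate number as a block, 6 members were called higher in D3W against Dcon, against 0.368% of all genes. Deviations from the group means of libraries with the same number correlated at -0.016 to 0.094 there, and in no comparison was every pair above 0.1. Libraries of different numbers were not set beside them, so this check cannot tell whether the numbers pair the samples. Values near 0 FPKM, as of RPL9 (ENSDARG00000037350) in most libraries, rest on few fragments. D8W replicate 5 was its highest library at 16.4 FPKM, and the cause of its low level was not tested.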
